A study of Ovis aries and Sus scrofa and Bos taurus with 33 samples.

Results

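Fatty acid synthase and acetyl-CoA carboxylase alpha, the enzymes that build saturated fatty acids from acetyl-CoA in the cytosol, were followed in bovine embryonic disc stem cells (EDSCs). The genes were chosen by identifier as ENSBTAG00000015980 (FASN), ENSBTAG00000017567 (ACACA) and ENSBTAG00000045728 (SCD, stearoyl-CoA desaturase). Values were obtained for 2 of these 3 genes, FASN and ACACA, among the 21861 genes of the bovine table. SCD was not analysed here. The table lists identifiers alone, so the pairing of identifier and symbol came with the choice of genes and could not be checked against the data. The same holds for the labelled cell type, because marker genes could not be identified.

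In de novo lipogenesis, acetyl-CoA carboxylase converts acetyl-CoA to malonyl-CoA, which is the committed step. Fatty acid synthase then extends the chain with malonyl-CoA and NADPH until palmitate is released, and stearoyl-CoA desaturase places a double bond into the saturated products. The genes are known targets of the SREBP transcription factors. Proliferating cells use the pathway to make membrane lipids.

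The bovine data were 9 RNAseq libraries of total RNA from 3 EDSC lines of *Bos taurus*, with 3 libraries a line, out of 33 libraries in the series. Passage numbers were 14, 16 and 17 for line 6, 16, 17 and 19 for line 13, and 15, 16 and 17 for line 16. All lines were kept in AFX medium, which is N2B27 supplemented with XAV939 (an inhibitor of tankyrase), FGF2 and activin A, on laminin and fibronectin without feeders or serum. According to the methods, bovine lines came from cultured inner cell masses of blastocysts produced *in vitro*, and the labels name no treatment. The sex of each line and the day of its embryo are not in the labels. Libraries of a line are different passages of that line. SDs with n = 3, SDs within lines, and p-values of tests between or within lines therefore measure the spread between passages. They do not cover separate embryos. SDs with n = 9, and correlations without subtraction of the line means, mix differences between lines with those between passages. Library totals worked back from the values lay between 10118008 and 14485798 reads, and between 16292 and 16892 genes were above 0 in a library. Values are FPKM, the reads on a gene scaled to its length in kilobases and to the library total. In bulk RNA, fewer expressing cells and less RNA per cell cannot be told apart.

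FASN was among the most abundant transcripts of the bovine lines and lay within a narrow range in all 9 libraries. In line 6 it was at 187, 210 and 204 FPKM at passages 14, 16 and 17. In line 13 it was at 225, 201 and 191 FPKM at passages 16, 17 and 19. In line 16 it was at 227, 207 and 220 FPKM at passages 15, 16 and 17. The ranges of the 3 lines overlapped, with the lowest library in line 6 and the highest in line 16. Over all libraries the level was 208 ± 14.1 FPKM (SD, n = 9), and the highest library was 1.22 times the lowest. Line means were 200.2 ± 12.1 FPKM in line 6, 206 ± 17.3 FPKM in line 13 and 218 ± 10.3 FPKM in line 16 (SD, n = 3 each). Each FASN value rested on 19596 to 29750 reads, which gives a counting error of 0.58% to 0.714%.

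ACACA, which supplies the malonyl-CoA that fatty acid synthase uses, was lower than FASN in each library. In line 6 it was at 53.7, 53.1 and 43.1 FPKM at passages 14, 16 and 17. In line 13 it was at 62.2, 48.8 and 50.8 FPKM at passages 16, 17 and 19. In line 16 it was at 49.7, 48.6 and 62.4 FPKM at passages 15, 16 and 17. Line 13 passage 16 and line 16 passage 17 were the high libraries and line 6 passage 17 the low one, and the ranges of the lines overlapped. The level over all libraries was 52.5 ± 6.34 FPKM (SD, n = 9), and the highest library was 1.45 times the lowest. Line means were 49.97 ± 5.97 FPKM in line 6, 53.9 ± 7.22 FPKM in line 13 and 53.6 ± 7.65 FPKM in line 16 (SD, n = 3 each). Between 4596 and 6322 reads lay on ACACA in a library, for a counting error of 1.26% to 1.48%.

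**Figure D1:**
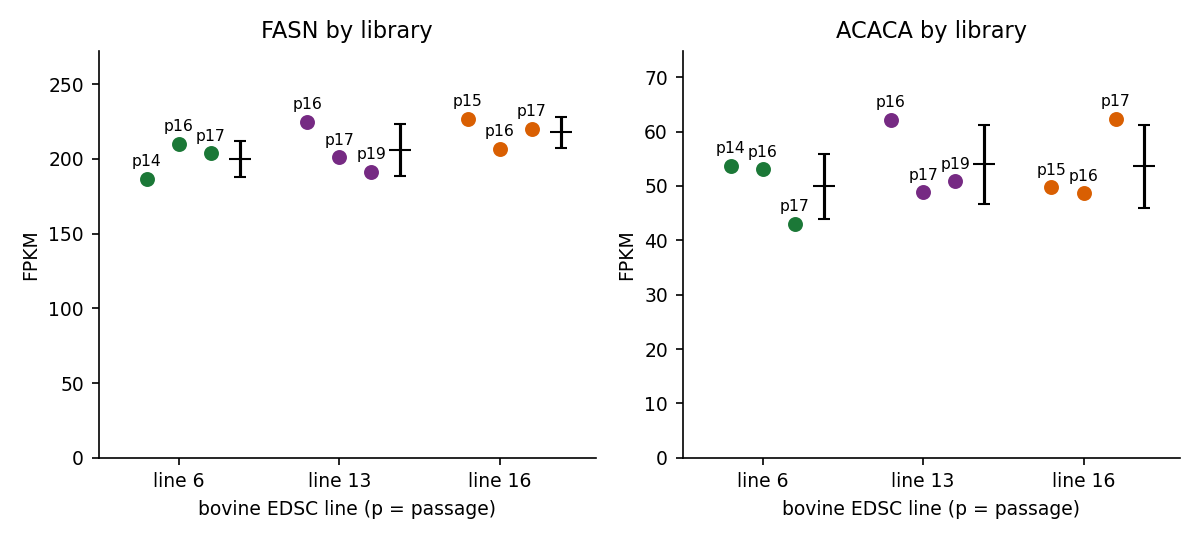
FPKM of FASN (left) and ACACA (right) in each of the 9 bovine libraries, grouped by line and labelled with the passage; bars at the right of each line are the mean and SD of 3 libraries. The points of the 3 lines overlap for both genes, with FASN between 187 and 227 FPKM and ACACA between 43.1 and 62.4 FPKM.

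Compared per length, FASN stood at 4.00 ± 0.451 times the level of ACACA (SD, n = 9 libraries). This ratio of FPKM values ran from 3.48 in line 6 passage 14 to 4.73 in line 6 passage 17, so a single line held both ends of its range. By line it was 4.05 ± 0.633 in line 6, 3.83 ± 0.259 in line 13 and 4.12 ± 0.53 in line 16 (SD, n = 3 each). The lengths that fit the values were 9860 bases for FASN and 8586 bases for ACACA, and FPKM is already divided by length.

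Ranked by FPKM within a library, with 1 as the highest gene, FASN lay between rank 223 (line 13 passage 16) and rank 314 (line 6 passage 14). Its median rank was 278, which is the top 1.67% of the genes above 0. The median rank was 278 in line 6, 284 in line 13 and 246 in line 16. ACACA lay between rank 1164 (line 13 passage 16) and rank 1890 (line 6 passage 17), with a median of 1530, the top 9.17%. Its median rank was 1499 in line 6, 1530 in line 13 and 1650 in line 16. The order of the lines by median rank thus differed between the 2 enzymes, although line 6 had the lowest mean FPKM for both. Within each enzyme the ranges of the lines overlapped. Both are long genes, and ranked by reads instead of FPKM they stood higher. FASN was then at ranks 22 to 32 with 0.184% to 0.224% of all reads in a library, and ACACA at ranks 220 to 414 with 0.037% to 0.0536%.

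**Figure D2:**
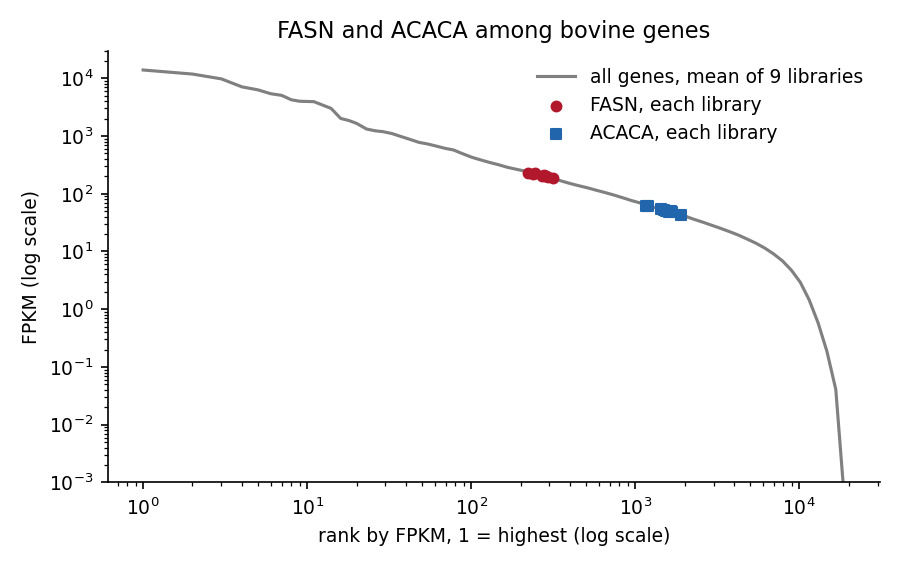
FPKM against rank for all bovine genes (grey line, mean of 9 libraries) with FASN (circles) and ACACA (squares) in each library; both axes are logarithmic. FASN occupies ranks 223 to 314 and ACACA ranks 1164 to 1890, without overlap.

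The spread between passages of a line was set beside that of other genes. On the log2(FPKM + 1) scale, the SD within lines was 0.094 for FASN and 0.19 for ACACA. The median of all genes tested was 0.17, and that of the 4108 genes averaging 20 FPKM or more was 0.14. Among these 4108 genes, 21.5% had a smaller SD within lines than FASN, and 74.3% a smaller one than ACACA. FASN was therefore on the steady side of genes of this class and ACACA on the variable side; the difference between the 2 SDs was not tested.

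**Figure D3:**
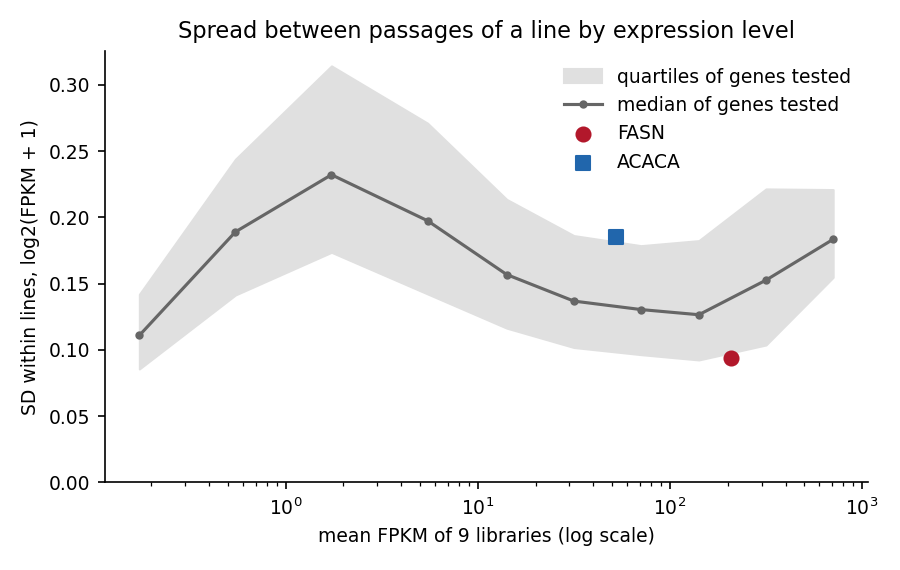
SD of log2(FPKM + 1) between passages of a line against mean FPKM (logarithmic axis), with the median (line) and quartiles (shading) of genes tested in classes of FPKM, and with FASN (circle) and ACACA (square). FASN, at 0.094, lies under the median of genes of its level and ACACA, at 0.19, above it.

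Lines were compared to ask whether separately derived bovine lines hold the lipogenic enzymes at the same level. Neither enzyme passed the test. With limma on log2(FPKM + 1), 3.18% of the 13630 genes tested differed between the 3 lines after Benjamini-Hochberg adjustment (threshold 0.05), and 0 of the 2 enzymes did. The count of genes called, 433, was 285 with the order of passages as a replicate block, 266 with passage as a covariate and 73 with passages 16 and 17 alone. It was 240 with line 16 passage 15 omitted, 268 with line 16 passage 16 omitted and 273 with line 13 passage 19 omitted. For FASN the line means of log2(FPKM + 1) were 7.65, 7.69 and 7.77 in lines 6, 13 and 16 (adjusted p = 0.696 in limma's F-test). For ACACA they were 5.66, 5.77 and 5.76 (adjusted p = 0.864). These means spanned 0.12 for FASN and 0.11 for ACACA, beside a median span of 0.22 over all genes tested. That median covers genes of every level, and the spans were not set beside those of genes of like FPKM. With single libraries left out, the span of FASN ranged from 0.085 to 0.16, and that of ACACA from 0.0107 (without line 6 passage 17) to 0.17 (without line 13 passage 17), with 0.16 also reached by omitting line 6 passage 14. With passages 16 and 17 alone, the span was 0.0439 for FASN and 0.20 for ACACA, and with passage as a covariate that of ACACA was 0.18.

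The intervals of the differences show what these libraries leave possible. The widest difference of FASN was line 16 minus line 6, at 0.12 ± 0.089 on the log2(FPKM + 1) scale (SE), with a 95% interval from -0.074 to 0.32, or a fold of 0.95 to 1.25. Line 13 minus line 6 was 0.038 for FASN (interval -0.16 to 0.23), and line 16 minus line 13 was 0.085 (-0.11 to 0.28). ACACA differed by 0.11 ± 0.13 (SE) between lines 13 and 6, with an interval from -0.19 to 0.40, or a fold of 0.879 to 1.32. Line 16 minus line 6 was 0.097 for ACACA (interval -0.20 to 0.39), and line 16 minus line 13 was -0.0107 (-0.30 to 0.28). In the same fit, 2.58% of genes were called for line 13 against line 6, 1.18% for line 16 against line 6 and 1.95% for line 16 against line 13. The lowest adjusted p-value of the 6 contrasts of the enzymes was 0.715 with limma.

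Each of these contrasts moved by over 1.5 times with some library omitted, and none passed the threshold. For FASN, line 16 minus line 6 ran from 0.0736 (line 6 passage 14 omitted) to 0.16 (line 16 passage 16 omitted). Line 16 minus line 13 of FASN ran from 0.0341 (line 13 passage 19 omitted) to 0.15 (line 13 passage 16 omitted), with 0.0549 when line 16 passage 15 was omitted. The smallest contrast of FASN, line 13 minus line 6, turned to -0.0274 with line 13 passage 16 omitted and to -0.011 with line 6 passage 14 omitted, and rose to 0.0886 with line 13 passage 19 and to 0.0735 with line 6 passage 16 omitted. For ACACA, line 13 minus line 6 was 0.0025 with line 13 passage 16 and 0.0063 with line 6 passage 17 omitted, and it rose to 0.17 with line 13 passage 17 and to 0.16 with line 6 passage 14 omitted. Line 16 minus line 6 of ACACA turned to -0.0156 with line 16 passage 17 and to -0.0044 with line 6 passage 17 omitted, and rose to 0.16 with line 16 passage 16 and to 0.15 with line 6 passage 14 omitted. Line 16 minus line 13 of ACACA, near 0 in the full set, ran from -0.12 (line 16 passage 17 omitted) to 0.094 (line 13 passage 16 omitted) and was also above 0 with passage 15 or passage 16 of line 16 omitted (0.0373 and 0.0536). With passages 16 and 17 alone, FASN had 0.0395 for line 13 minus line 6, 0.0439 for line 16 minus line 6 and 0.0044 for line 16 minus line 13, and ACACA had 0.20, 0.20 and -0.0008.

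Passage was examined as a slope with line as a factor, since libraries of a line were taken in succession. FASN had a slope of -0.0135 ± 0.0348 per passage on the log2(FPKM + 1) scale (SE, 95% interval -0.092 to 0.065), and ACACA -0.041 ± 0.0495 (SE, -0.15 to 0.071). Both had an adjusted p of 1 in limma, in a comparison that called 0% of the genes tested and in which 1.69% (230 genes) had an unadjusted p under 0.05. The slope of FASN was 0.0126 without line 13 passage 16 and 0.0139 without line 13 passage 19, so its sign depended on either library. It was -0.0556 with line 6 passage 14 omitted, -0.024 with line 6 passage 17 omitted and -0.0065 with line 16 passage 15 omitted. The slope of ACACA stayed below 0 in these refits. It ranged from -0.0049 (without line 13 passage 16) to -0.081 (without line 16 passage 17). It was -0.0066 when line 6 passage 17, -0.0265 when line 6 passage 14 and -0.0616 when line 16 passage 15 was omitted. With a whole line left out, the slope of ACACA was -0.0063 without line 6, -0.0149 without line 13 and -0.0839 without line 16.

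Fitted line by line, the slope of FASN was 0.048 per passage in line 6, -0.071 in line 13 and -0.022 in line 16, and that of ACACA -0.09, -0.078 and 0.16. A difference of slopes between lines did not pass limma's interaction test (adjusted p = 0.967 for FASN and 0.965 for ACACA, with 0% of genes called and 4.3% at an unadjusted p under 0.05). All 3 lines were sampled at passages 16 and 17. Over this step ACACA was lower at passage 17 in line 6 (0.811 times its FPKM at passage 16) and in line 13 (0.785 times), and higher in line 16 (1.28 times). FASN had the same signs with smaller steps, at 0.97 times in line 6, 0.894 times in line 13 and 1.07 times in line 16. The step has 1 library at each end in a line and no replicate check.

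Whether the enzymes moved together was asked of the deviations of each library from its line mean on the log2(FPKM + 1) scale. FASN and ACACA deviated the same way in 6 of the 9 libraries. Line 13 passage 16 lay high for both, at 0.13 for FASN and 0.21 for ACACA. The exceptions were line 6 passage 14 (-0.098 and 0.11), line 6 passage 17 (0.027 and -0.20) and line 16 passage 15 (0.059 and -0.096). Pearson's r of the deviations was 0.35 (exact permutation of libraries within lines, two-sided, p = 0.421, where the smallest possible p is 0.00463), and Spearman's rho was 0.17 (exact permutation p = 0.718). With SCD not analysed here, this was the only pair, so no adjustment over pairs was made. Without subtraction of the line means, r over the 9 libraries was 0.40 and rho 0.23 (exact permutation p = 0.298 and 0.552). Leaving out line 6 passage 14 and line 16 passage 15, the libraries farthest from the median of FASN, gave r = 0.74 (n = 7, exact permutation p = 0.0556). With single libraries left out, r within lines ran from -0.068 (line 13 passage 16 omitted, exact permutation p = 0.792) to 0.62 (line 6 passage 14 omitted, exact permutation p = 0.208). It was -0.0374 with line 13 omitted (exact permutation p = 0.889), 0.63 with line 6 omitted (exact permutation p = 0.278) and 0.39 with line 16 omitted (exact permutation p = 0.50). The pair farthest from the median of FASN after subtraction of the line means was line 13 passages 16 and 19, and their omission is the same calculation as that of line 13. These libraries did not show the enzymes to move together.

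**Figure D4:**
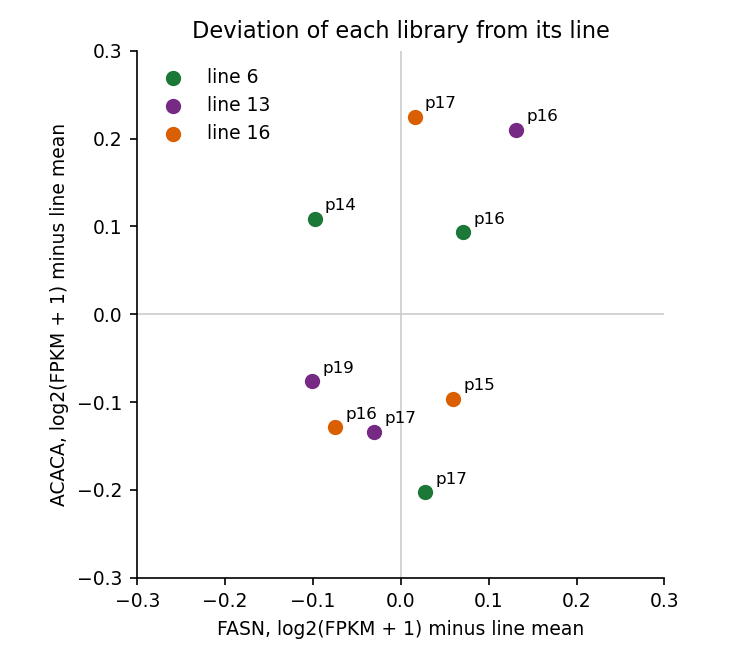
Deviation of each bovine library from the mean of its line for FASN (x axis) and ACACA (y axis), both in log2(FPKM + 1), coloured by line and labelled with the passage. In 6 of 9 libraries both genes deviate the same way, and ACACA deviates over a wider range than FASN.

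The r of 0.35 was also set beside that of each enzyme with every other gene tested, as a description over the same 9 libraries, which share library scaling and line. Of the 13629 other genes, 15.5% had a higher r with FASN than ACACA had. From the highest r, ACACA was at rank 2107 for FASN, and FASN at rank 3412 for ACACA. The median r over all genes was -0.064 for FASN (quartiles -0.33 and 0.22) and -0.10 for ACACA (quartiles -0.47 and 0.36). The distribution of ACACA was wider, so that 58.4% of genes had an r with ACACA larger in size than that of FASN, against 38.6% the other way.

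**Figure D5:**
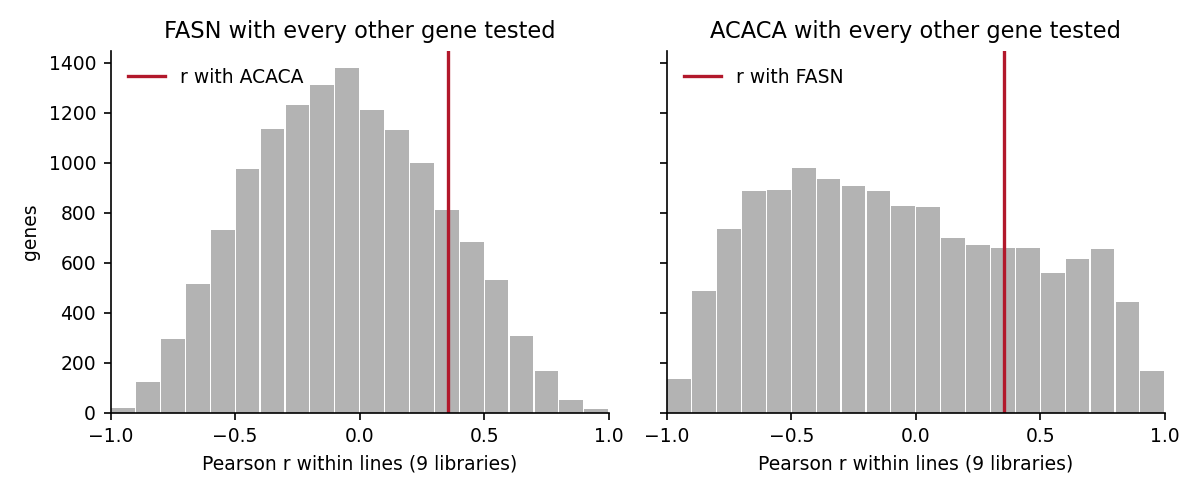
Number of genes by Pearson's r of their deviations within lines with FASN (left) and ACACA (right) over 9 libraries, in classes of width 0.1; the vertical line marks r between FASN and ACACA. The line, at 0.35, lies inside both distributions.

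Measures of the whole library were set beside the enzymes in the same way, with 8 relations computed. For ACACA the relation with total reads within lines was negative (r = -0.83, exact permutation p = 0.0278, two-sided, adjusted p over the 8 relations 0.204; rho = -0.75, exact permutation p = 0.0694, adjusted p 0.278). Without the 2 libraries farthest in total reads, r was -0.97. FASN had r = -0.62 with total reads (exact permutation p = 0.204, adjusted p 0.407; rho = -0.57, exact permutation p = 0.255, adjusted p 0.509), and -0.12 without the 2 farthest. The number of genes above 0 gave values close to those of total reads for ACACA (r = -0.81, exact permutation p = 0.0509, adjusted p 0.204; rho = -0.78, exact permutation p = 0.0463, adjusted p 0.278; r = -0.78 without the 2 farthest libraries). For FASN this r was -0.30 (exact permutation p = 0.486, adjusted p 0.556; rho = -0.22, exact permutation p = 0.602, adjusted p 0.762). The share of reads on the top 100 genes had r = 0.46 with FASN (exact permutation p = 0.426, adjusted p 0.556; rho = 0.48, exact permutation p = 0.366, adjusted p 0.585). With ACACA it had r = 0.25 (exact permutation p = 0.588, adjusted p 0.588; rho = 0.15, exact permutation p = 0.778, adjusted p 0.778). Without the 2 libraries farthest in this share, r was -0.15 with FASN and 0.072 with ACACA. None of the 8 relations passed the adjustment. FPKM is already divided by the library total, and the part of the total in the values was not tested.

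The balance of long against short genes also differed between libraries. It was taken as the median deviation of 1547 genes of at least 5000 bases minus that of 4860 genes under 2000 bases, in log2(FPKM + 1). Line 13 passage 16 and line 16 passage 17, the libraries highest in ACACA, had the highest balance, at 0.14 and 0.12. The other libraries lay between -0.11 and 0.054, with line 6 passage 17, the lowest in ACACA, at 0.054. Within lines r with ACACA was 0.57 (exact permutation p = 0.185, adjusted p 0.407; rho = 0.60, exact permutation p = 0.167, adjusted p 0.444), and -0.17 without the 2 farthest libraries. For FASN, the longer gene, r was 0.32 (exact permutation p = 0.468, adjusted p 0.556; rho = 0.22, exact permutation p = 0.667, adjusted p 0.762), and 0.39 without the 2 farthest. With this balance as a covariate, chosen after the data were seen, neither enzyme passed the test between lines, and r between the enzymes was 0.22. Line 13 minus line 6 was then 0.057 for ACACA and 0.024 for FASN, against 0.11 and 0.038 without the covariate. Line 16 minus line 6 was 0.11 for ACACA and 0.13 for FASN, against 0.097 and 0.12.

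The genes whose log2(FPKM + 1) over the 9 libraries was most like that of the enzymes, by mean Pearson's r with FASN and ACACA, were ENSBTAG00000013240 (mean r = 0.82, 54.1 ± 9.85 FPKM) and ENSBTAG00000051886 (mean r = 0.81, 16.3 ± 2.57 FPKM). The most opposite were ENSBTAG00000014881 (mean r = -0.80, 38.3 ± 3.67 FPKM) and ENSBTAG00000016726 (mean r = -0.78, 22.8 ± 1.38 FPKM). Errors are SD with n = 9. They were picked on these values from among all genes tested, and are a description alone.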

How the data were processed

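Bovine RNAseq libraries were used, with line and passage taken from the labels and 0 columns left unmatched. According to the methods, ribosomal RNA was removed (Qiaseq FastSelect), and strand-specific libraries were trimmed with Trim-Galore v0.6.5, aligned with STAR v2.7.3a to ARS-UCD1.2 and assigned to genes with FeatureCounts of SubRead v2.0.0. The authors deposited log2(FPKM + 1) values, in tables whose names speak of raw counts. The annotation release and strand setting are not given in the sources used here, so reads shared with overlapping genes are uncertain.

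Whole reads, totals and lengths were worked back from the values for 100% of the 18900 genes above 0, within 5.6e-09 of a whole number, and the reads made up 99.96% of the totals. The design had been written for log2 values and was kept: limma (version 3.58.1, R 4.3.3; lmFit, eBayes with trend) on genes with 10 reads, scaled to the median total, in 3 libraries, with Benjamini-Hochberg adjustment over all 13630 and a threshold of 0.05. Fits were tested on simulated data. Python 3.11.15, numpy 2.4.6 and scipy 1.17.1 were used. The genes and lists were chosen with earlier results of these data known. The rule for named genes was FASN, ACACA and SCD in full, members of lists of lipid and marker genes, and the genes most and least like the enzymes. The tables pair no bovine identifier with a symbol, so lists were not analysed here, at most 2 identifiers a direction are printed, and no sequence or position was used. Porcine and ovine tables were read for their number of genes and columns alone.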

Additional observations from a re-analysis of the deposited data

How the results depend on the processing

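Neither FASN nor ACACA passed the threshold between lines or with passage under any of 19 alternatives for each. Adjusted p ranged from 0.592 to 0.998 for FASN and from 0.748 to 0.999 for ACACA in limma's F-test, and from 0.567 upwards in the contrasts. The alternatives were a pseudocount of 0.1, no filter, a mean of at least 1 FPKM, upper-quartile normalization, limma voom with TMM scaling on the recovered reads, no mean-variance trend, each library left out, and settings for passage, line and length. The labels give no replicate numbers. With the order of passages as a replicate block, 285 genes differed between lines against 433 without it, of which 265 were called in both. Deviations of libraries with the same order correlated from -0.353 to 0.403 over 9 pairs. Pairs of different order were not set beside these, so whether libraries of the same order share a batch was not tested. No call of the enzymes changed with the block. The count was 266 with passage as a covariate and 73 with passages 16 and 17 only. With each library left out it ranged from 240 to 461. It was 240, 268 and 273 when passage 15 or 16 of line 16 or passage 19 of line 13 was omitted. The passage trend called 0 genes under each alternative.

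Signs of differences near 0 turned. With each library left out, line 13 minus line 6 of FASN ranged from -0.0274 to 0.0886, line 16 minus line 6 of ACACA from -0.0156 to 0.161, line 16 minus line 13 of ACACA from -0.123 to 0.0943 and the slope of FASN from -0.0556 to 0.0139. Line 16 minus line 13 of ACACA was 0.0537 with length balance as a covariate, chosen after seeing the data, and the slope of FASN 0.027 without line 13. The r between the enzymes within lines ranged from -0.0684 to 0.624 with each library left out, and was -0.0374 without line 13. Omission of the 2 libraries whose FASN lay farthest from the median after centring, both of line 13, is the same calculation. The cause was not tested. The median rank of FASN was 1.27% among all genes in the table and 0.169% by reads, against 1.67%, and that of ACACA 7.00% and 1.90%, against 9.17%.

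Alternatives for SCD and for lists of lipid genes were not run, since these genes were not analysed here. No alternative varied the depth.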
